A study of Mus musculus with 41 samples.

Results

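The 32 genes described here encode enzymes of cholesterol synthesis, the sterol-sensing machinery that sets their transcription, the liver X receptors (LXR), the lipoprotein and efflux proteins that carry cholesterol out of cells, and enzymes of its turnover. They were taken by symbol from the first column of the deposited table, and all 32 were found among its 24946 genes. The members comprised 18 synthesis enzymes, 5 regulators of sterol sensing, 7 LXR and transport genes and 2 turnover or storage genes. All 32 passed the filter on low values in every comparison. The tissue came from C57BL/6J mice aged 12 weeks, of male and female label, and was dissected as whole cortex, midbrain or cerebellum. All groups share the floxed Yy1 alleles, which Cre can remove, and astrocytic Yy1-cKO mice (cKO) also have GFAP-cre, which places Cre under the promoter of the astrocyte gene Gfap. Because no group had Cre without floxed alleles, loss of the transcription factor Yy1 and the presence of Cre cannot be told apart. Cortex had 6 floxed and 5 cKO libraries, and midbrain and cerebellum had 7 of each.

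Cholesterol does not cross the blood-brain barrier in lipoproteins, so the brain makes its own, in the adult largely in astrocytes, with oligodendrocytes making much of it for myelin. Acetyl-CoA is built up through mevalonate and squalene to lanosterol and then to cholesterol. When sterol is scarce, Scap escorts the SREBP precursors encoded by Srebf1 and Srebf2 out of the endoplasmic reticulum, and the processed factors raise transcription of the pathway. When sterol is plentiful, oxysterols bind LXR, which raises transcription of Abca1, Abcg1, Apoe, Mylip and Srebf1. Neurons turn excess cholesterol into 24S-hydroxycholesterol with Cyp46a1.

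Library totals spanned 21.494 to 28.669 M of the normalised values that the authors deposited, and the reads behind them, estimated from the spacing of low values, spanned 6.724 to 69.481 M. Yy1 fell in cKO tissue of cortex (log2 fold -0.26, SE 0.07, limma adjusted p = 0.0166), midbrain (-0.24, SE 0.06, adjusted p = 0.0180) and cerebellum (-0.86, SE 0.15, adjusted p = 0.00114). The library labelled floxed cerebellum 6 went against its label, with Yy1 at 585.4 where the other floxed libraries had at least 881.2, and with Gfap at 25729.2 where they had at most 4785.6. For many called members the cerebellar fold is therefore given with it and without it. The other cerebellar folds include it, among them those of Msmo1, Fdft1, Sqle, Hmgcs1 and the further pathway genes. An index of gene length, the median log2 deviation from floxed tissue of genes with at most 1500 exonic bases minus that of genes with at least 5000, stood apart in cKO cerebellum 4 (0.84) and 7 (0.97), against -0.08 to 0.21 in the other cKO cerebellum libraries. It was also higher in cKO cortex 4, 5 and 6 (0.61, 0.44 and 0.64) than in cKO cortex 2 and 3 (-0.00 and -0.02). Its median was -0.09 in floxed and 0.44 in cKO cortex, so index and genotype were partly confounded there. Where a fold shrinks with the index as a covariate, the 2 therefore cannot be told apart. Cerebellum markers summed to 75293.0 to 153574.9 in cerebellum and to at most 7733.4 elsewhere. Cortex markers summed to 12452.8 to 15720.0 in floxed cortex but also to 7164.4 to 10222.3 in tissue labelled floxed midbrain, so the midbrain samples carried cortical transcripts as well as their own markers. Microglia and macrophage markers rose in cKO tissue (12 of 15 in cortex, 11 of 15 in midbrain and 15 of 15 in cerebellum), while astrocyte markers other than Gfap fell (6, 7 and 8 of 14). Of 14 oligodendrocyte markers, 8 fell in each of cortex and midbrain. In cerebellum 3 of 14 fell, close to the share of all genes, and the median sum of the markers was 186173.7 in floxed and 217155.2 in cKO tissue. Libraries cKO cerebellum 4 and 7 stood apart here too, with oligodendrocyte sums of 526854.7 to 531598.7 against 145888.4 to 230922.2 in the other cKO cerebellum libraries. Their endothelial sums were 9203.4 to 12034.1 against 3898.5 to 4502.7. Their cerebellum marker sums were 75293.0 to 97976.5 against 117811.9 to 153574.9. No astrocyte, oligodendrocyte or microglia marker was at 0 in all libraries of a group. In whole tissue, fewer cells of a type and less RNA per cell cannot be told apart, and the part of these cell shifts in the member values was not tested.

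The bases before the transcription start were compared because sterol response elements lie there in the classical SREBP targets. RefSeq promoters (250 bases before the start) matched 27 of the 32 members, and both strands were searched on GRCm38. Members were counted by gene, and only exact matches were counted, so elements that differ by a base were not found. The sterol response element in the form TCACNCCAC was found in 1 of 27 members, Hmgcs1, 137 bases before its start. It was found in 1.1% of 32851 RefSeq promoters and in 1.3% of tested genes with a matched promoter. A CCAAT box (CCAAT) was found in 21 of 27 members (77.8%), among them 14 of 15 matched synthesis enzymes. It was found in 33.8% of all promoters and in 39.9% of tested genes with a matched promoter. A GC box (GGGCGG) was likewise found in 21 of 27 members and in 14 of 15 enzymes. It was found in 32.7% of all promoters and in 60.9% of tested genes with a matched promoter. The core of the YY1 site (AANATGGC) was found in 0 of 27 members, in 3.9% of all promoters and in 4.7% of tested genes with a matched promoter. At shares this low nothing is read from 0 of 27, and bases after the start were not searched. The runs below are shown for the synthesis gene with the sterol response element, for Srebf2, Dhcr7, Lcat and Nr1h3, whose values carry the genotype results. They read 5′ to 3′ on the strand of the gene and end at or up to 88 bases before the RefSeq start. Capitals mark the searched motifs on either strand, so that ATTGG and CCGCCC are the reverse complements of the CCAAT and GC boxes. None of the motifs overlapped another in these runs.
Hmgcs1 (chr13:119690201-119690350, plus strand): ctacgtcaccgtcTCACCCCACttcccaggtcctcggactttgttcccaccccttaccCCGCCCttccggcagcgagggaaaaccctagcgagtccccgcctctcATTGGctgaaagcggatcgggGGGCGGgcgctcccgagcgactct
Srebf2 (chr15:82147031-82147180, plus strand): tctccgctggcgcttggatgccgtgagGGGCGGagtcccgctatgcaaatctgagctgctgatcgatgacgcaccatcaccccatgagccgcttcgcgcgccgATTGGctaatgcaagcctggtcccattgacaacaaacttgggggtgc
Dhcr7 (chr7:143822995-143823144, plus strand): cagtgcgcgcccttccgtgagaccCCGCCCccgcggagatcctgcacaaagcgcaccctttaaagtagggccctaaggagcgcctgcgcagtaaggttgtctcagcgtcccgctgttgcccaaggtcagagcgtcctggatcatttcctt
Lcat (chr8:105943403-105943552, minus strand): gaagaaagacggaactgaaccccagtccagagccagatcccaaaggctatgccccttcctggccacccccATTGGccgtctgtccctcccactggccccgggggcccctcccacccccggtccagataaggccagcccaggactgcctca
Nr1h3 (chr2:91195152-91195301, minus strand): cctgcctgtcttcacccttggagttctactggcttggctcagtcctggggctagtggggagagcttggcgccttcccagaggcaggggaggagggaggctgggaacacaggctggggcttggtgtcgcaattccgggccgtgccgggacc
The run of Hmgcs1 holds the sterol response element, 1 CCAAT box and 2 GC boxes. Those of Srebf2 and Lcat hold 1 CCAAT box each, Srebf2 with a GC box, and Dhcr7 holds 1 GC box. Nr1h3 holds none of the 4 motifs in this window, which says only that these letters are absent from it.

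In floxed tissue the members divided by role between regions, with the synthesis genes lowest in cerebellum and several LXR and transport genes highest there. Per kilobase of exon, Apoe, the main lipoprotein of the brain, had the highest level of the 32 in every region, at 33259.3 ± 3663.1 normalised values per kilobase in cortex (SD, n = 6), 33899.8 ± 2692.3 in midbrain and 26300.3 ± 2315.8 in cerebellum (SD, n = 7 each). In cortex Cyp46a1 came next at 2500.4 ± 314.0 per kilobase and then Hmgcs1 at 1586.6 ± 304.5, while Nr1h3, which encodes LXR alpha, was the lowest at 33.4 ± 4.9 and lay close to Soat1 at 44.7 ± 9.5. In cerebellum the level next to Apoe was that of Lcat at 1525.1 ± 150.3 per kilobase, and Cyp46a1 stood ninth at 399.3 ± 49.7, a rank within 1 SD of Scap and Srebf2 (394.4 ± 27.7 and 394.4 ± 32.9). The order of the 3 regional means was midbrain above cortex above cerebellum in 21 members, cerebellum highest in 8 members, and cortex above midbrain above cerebellum in 3.

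Between floxed cerebellum and cortex, 6 members were higher and 21 lower, where 25.2% and 44.1% of all tested genes were. The 21 included 15 of 18 synthesis enzymes. Hmgcs1, which makes HMG-CoA at the head of the pathway, had 6099.1 to 9909.6 in floxed cortex (median 6788.2, n = 6), 6261.4 to 9826.7 in midbrain (median 7600.1, n = 7) and 2491.2 to 3505.3 in cerebellum (median 3023.4, n = 7). The cerebellar libraries lay below all of the others, and the fold against cortex was -1.33 in log2 (SE 0.10, limma adjusted p = 1.4e-10). Squalene synthase Fdft1 (-1.23), Msmo1 (-1.17) and squalene epoxidase Sqle (-1.06) differed by similar amounts. Srebf2, the SREBP that mainly drives cholesterol genes, was lower too (log2 fold -1.33, SE 0.06, adjusted p = 2.1e-14). Cyp46a1 had 7306.3 to 10211.7 in floxed cortex, 4286.4 to 6064.9 in midbrain and 1078.3 to 1516.8 in cerebellum, 3 ranges with no overlap. Its level in cerebellum was 0.158 of that in cortex (log2 fold -2.66, SE 0.08, adjusted p = 2.7e-17).

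The 6 members higher in floxed cerebellum than in cortex were Ebp, Stard4, Nr1h2, Nr1h3, Abcg1 and Lcat. Ebp, the sterol isomerase of the late pathway, was the only enzyme among them, at 1.01 on the log2 scale (SE 0.08, adjusted p = 1.1e-10). Nr1h3 was 3.81-fold higher (log2 fold 1.93, SE 0.10, adjusted p = 2.7e-13) and Lcat, which esterifies cholesterol on lipoproteins, 3.60-fold higher (1.85, SE 0.14, adjusted p = 2.4e-10). Nr1h2, which encodes LXR beta, and the exporter Abcg1 differed less (0.34 and 0.39). Between cerebellum and midbrain the same 6 were higher and 23 were lower, against 26.6% and 42.9% of tested genes. Between midbrain and cortex 10 members were higher and 2 lower, against 12.8% and 22.3%, with Cyp46a1 lower by -0.64 (SE 0.08, adjusted p = 5.0e-06). Without floxed cerebellum 6 the cerebellum to cortex counts were 6 higher and 20 lower. The balance over all genes turned with the scaling. With values scaled to equal library totals, 44.0% of tested genes were higher and 29.1% lower in cerebellum than in cortex, the median of all genes moved from -0.14 to 0.14, and 7 members were higher and 15 lower. With median-of-ratios size factors the shares were 35.3% and 34.9%, and 7 members were higher and 17 lower. Pmvk, among the 21, changed sign with equal totals (-0.21 to 0.07, adjusted p = 0.0229 and 0.448), while the folds of Hmgcs1 (-1.05), Srebf2 (-1.05), Cyp46a1 (-2.38), Nr1h3 (2.21) and Lcat (2.13) against cortex kept their direction and passed. Against midbrain the members were 8 higher and 19 lower with equal totals, beside 39.2% and 31.7% of genes, and between midbrain and cortex 15 higher and 1 lower, beside 20.6% and 12.6%. Libraries of different regions may come from the same animals, which the labels do not spell out and these fits did not take into account. The 3 comparisons share floxed libraries.

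**Figure D1:**
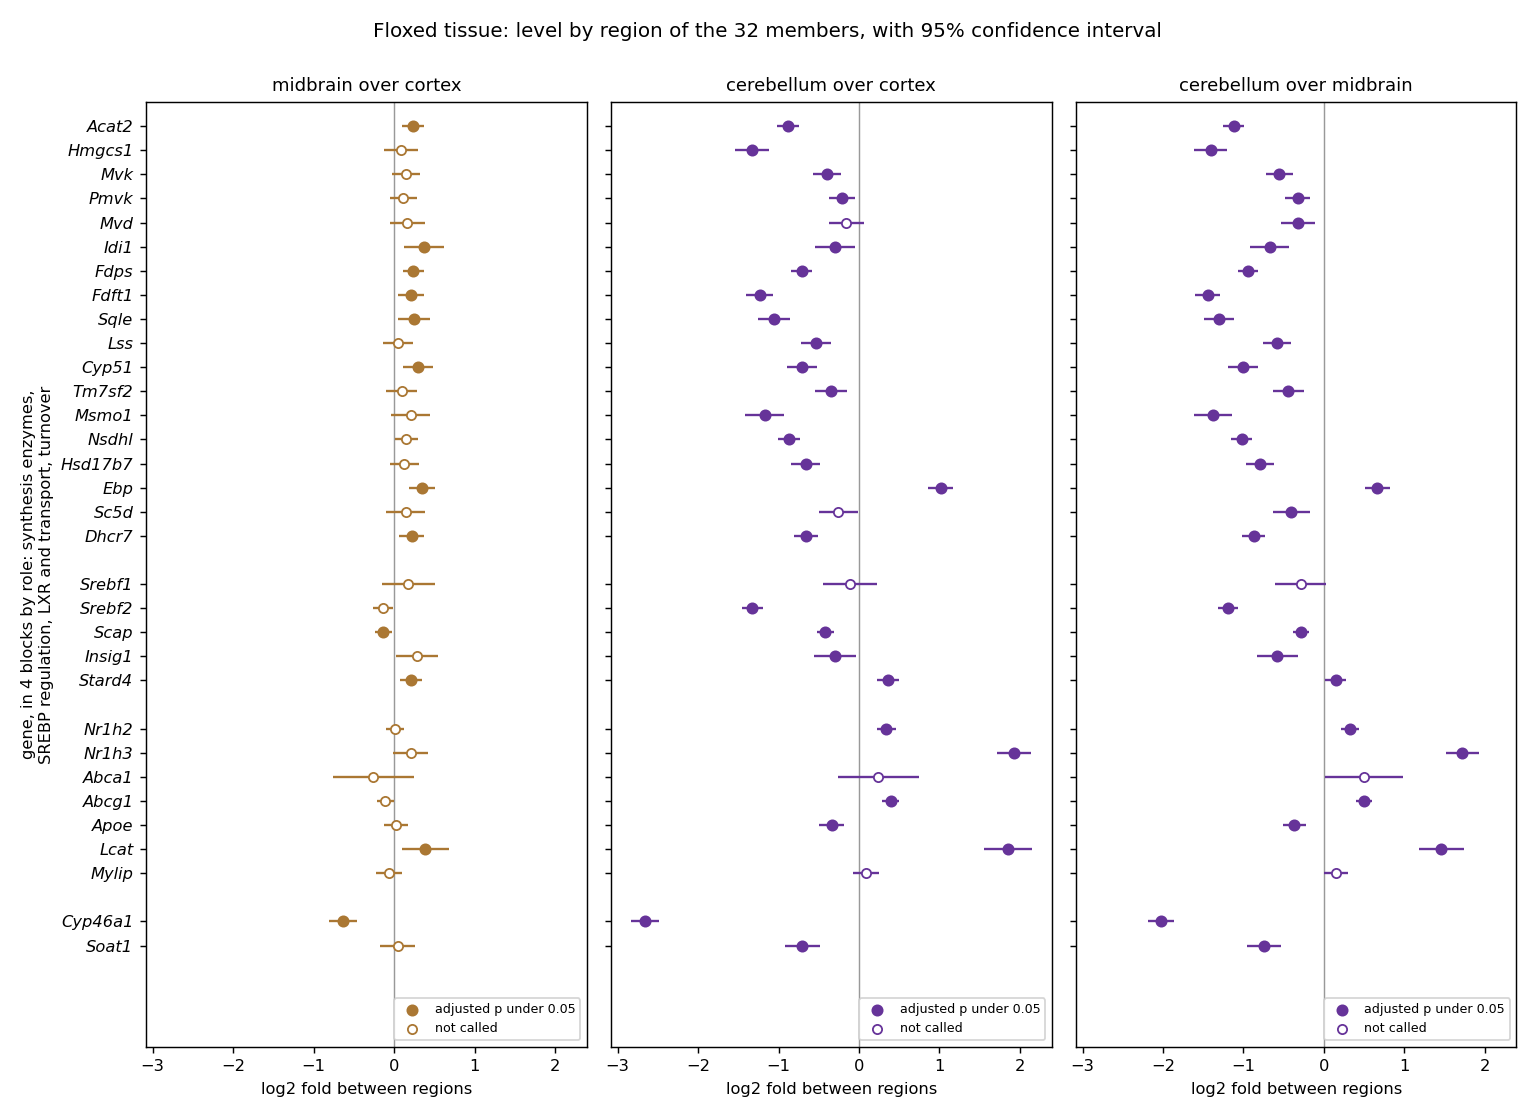
Log2 fold between floxed regions (x axis) for each of the 32 members (y axis, in 4 blocks by role), with 95% confidence intervals; filled points have a limma adjusted p under 0.05. Synthesis enzymes lie mostly left of 0 in the cerebellum panels, apart from Ebp at 1.01, and Cyp46a1 lies farthest left at -2.66 against cortex, while Nr1h3 (1.93) and Lcat (1.85) lie farthest right.

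The comparison of cKO with floxed tissue asks what happened to the pathway where astrocytic Yy1 was excised. In cortex 5 members rose and 1 fell, against 10.5% and 12.9% of tested genes. In midbrain 5 rose and 1 fell, against 8.48% and 7.61%. In cerebellum 7 rose and 7 fell, against 19.4% and 19.6%. With values scaled to equal totals the counts were 6 and 0 in cortex (13.3% and 9.18% of genes) and 7 and 2 in cerebellum (24.5% and 14.2%), and Acat2, Fdft1, Cyp51, Msmo1 and Cyp46a1 no longer passed in cerebellum. The median log2 fold of the 32 was 0.05 in cortex, 0.04 in midbrain and -0.04 in cerebellum, beside -0.01 over all genes tested in each region. As a list the members therefore stayed close to the background of each region, and the results below are those of single genes. Of the 32 members, 16 passed the test in no region, 10 in 1 region, 2 in 2 regions and 4 in all 3. The 4 were Pmvk and Dhcr7 among the enzymes and Nr1h3 and Lcat among the LXR and transport genes, all higher in cKO tissue. No member rose in 1 region and fell in another.

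**Figure D2:**
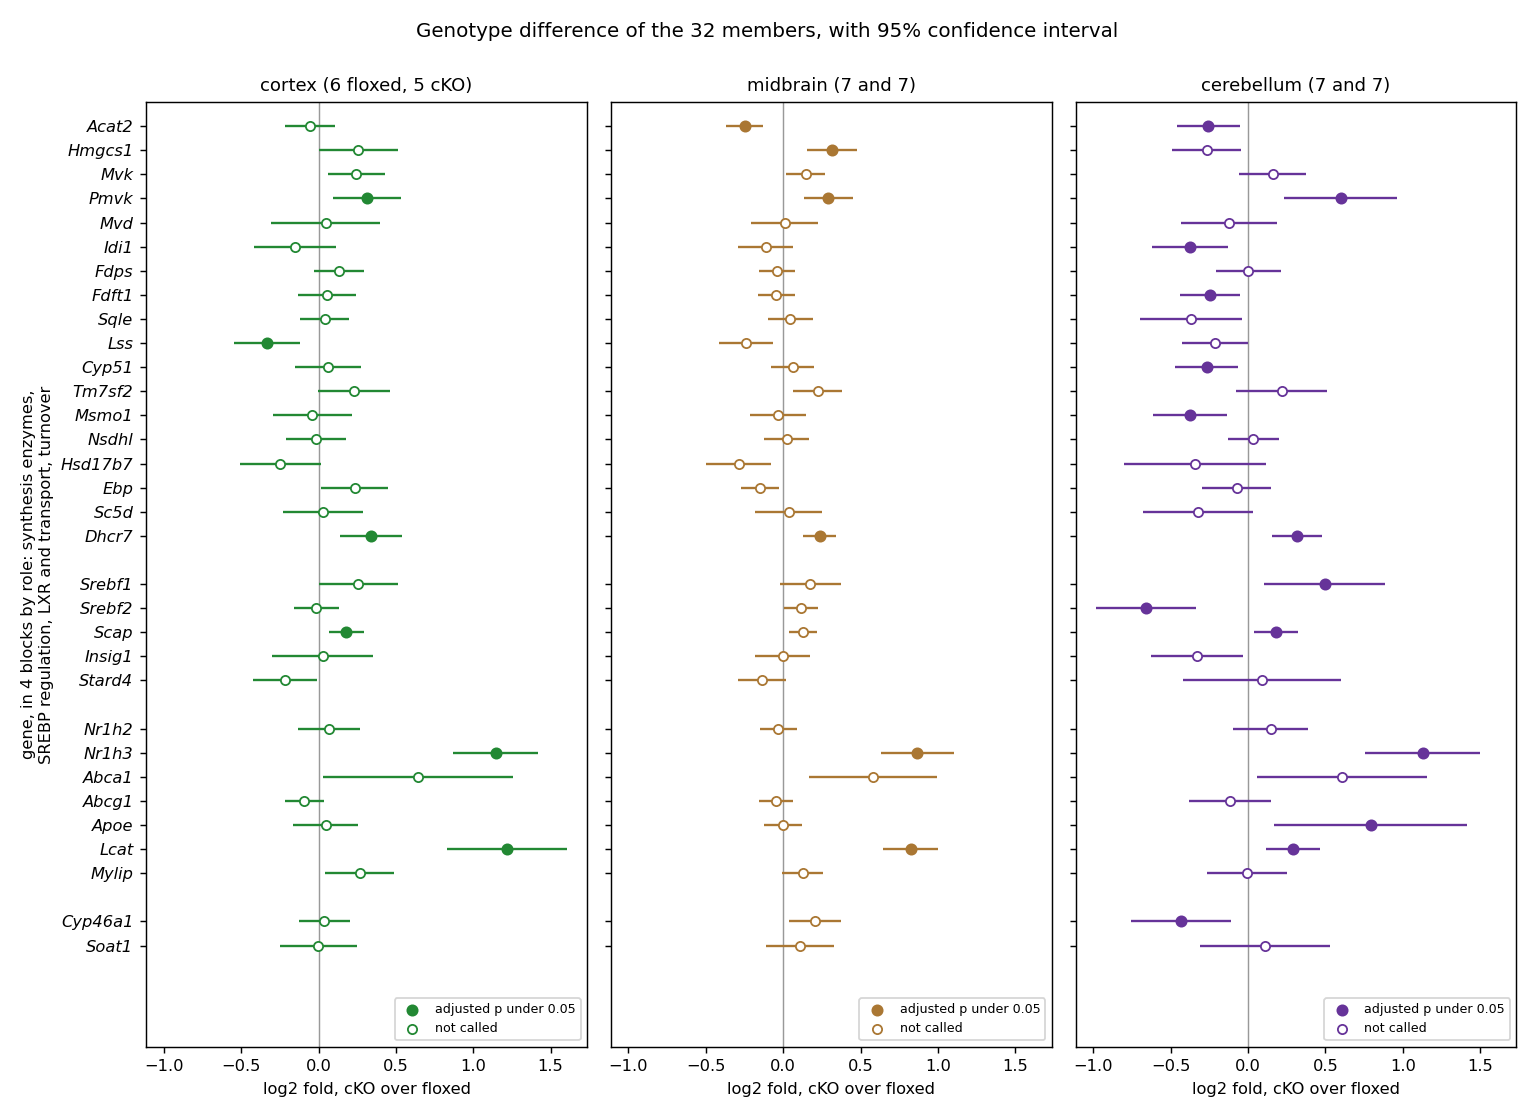
Log2 fold of cKO over floxed tissue (x axis) in cortex, midbrain and cerebellum for each member (y axis, in 4 blocks by role), with 95% confidence intervals; filled points have a limma adjusted p under 0.05. Nr1h3 lies between 0.87 and 1.14 in the 3 panels, Lcat falls from 1.22 in cortex to 0.29 in cerebellum, and the synthesis enzymes lie between -0.37 and 0.60.

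Of the 18 enzymes, 2 rose and 1 fell in cortex, 3 and 1 in midbrain, and 2 and 5 in cerebellum. These counts stand beside the shares of all tested genes given above (19.4% higher and 19.6% lower in cerebellum), and the regions' counts were not compared by a test. Dhcr7, the reductase of the last step from 7-dehydrocholesterol, rose in every region. It had 794.4 to 1230.8 in floxed cortex (median 967.7, n = 6) and 1100.1, 1270.6, 1334.1, 1243.2 and 1203.7 in the 5 cKO libraries. With 3 of 5 cKO libraries above every floxed one, it was higher (log2 fold 0.34, SE 0.09, limma adjusted p = 0.0223), a call lost with the length index as a covariate (0.33, SE 0.12, adjusted p = 0.111). In midbrain it had 1036.0 to 1229.5 in floxed (median 1163.8, n = 7) and 1210.6 to 1412.9 in cKO tissue (median 1367.4, n = 7), and 6 of 7 cKO libraries lay above the floxed range (0.24, SE 0.05, adjusted p = 0.00456). In cerebellum it had 500.3 to 702.8 (median 640.3) and 647.3 to 969.5 (median 763.5), with 5 of 7 above (0.32, SE 0.08, adjusted p = 0.00537; without floxed cerebellum 6, 0.32, adjusted p = 0.00702).

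Pmvk, which adds the second phosphate to mevalonate, also rose in each region, and its values followed the length index. In cortex it had 836.8 to 1228.7 in floxed tissue (median 908.2) and 1003.7, 948.4, 1477.1, 1341.6 and 1474.8 in cKO tissue. The 3 cKO libraries above the floxed range were cortex 4, 5 and 6, those of high index, and the log2 fold of 0.31 (SE 0.10, adjusted p = 0.0395) became 0.11 (SE 0.09, adjusted p = 0.520) with the index as a covariate. In midbrain Pmvk had 898.4 to 1310.4 (median 1071.1) and 1185.5 to 1546.8 (median 1321.4), a log2 fold of 0.29 (SE 0.08, adjusted p = 0.0148), which became 0.16 (SE 0.06, adjusted p = 0.116) with the index. In cerebellum it had 758.7 to 1145.1 (median 785.3) and 993.5 to 2462.2 (median 1124.9), with cKO cerebellum 7 and 4 highest at 2462.2 and 1692.4. The log2 fold of 0.60 (SE 0.17, adjusted p = 0.0141) was 0.34 (SE 0.08, adjusted p = 0.00699) without those 2 libraries, 0.27 (SE 0.09, adjusted p = 0.0263) with the index as a covariate and 0.60 (adjusted p = 0.0191) without floxed cerebellum 6.

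Hmgcs1 moved differently by region. In cortex it had 6099.1 to 9909.6 in floxed tissue and 8570.0, 9553.9, 9467.4, 8398.6 and 7239.4 in cKO tissue, a log2 fold of 0.26 (SE 0.12, adjusted p = 0.129). In midbrain it rose, from a median of 7600.1 to a range of 8997.7 to 10537.0 (median 9425.1), with 2 of 7 cKO libraries above the highest floxed one, midbrain 6 (0.31, SE 0.08, adjusted p = 0.0117). In cerebellum it had 1906.7 to 2907.1 in cKO tissue (median 2514.4), 3 of 7 below the floxed range (-0.27, SE 0.10, adjusted p = 0.0550). The gene shares 12.1% of its exonic bases with a transcript on the other strand, and the library kit did not mark strand.

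The enzymes that fell in cerebellum were Acat2, Idi1, Fdft1, Cyp51 and Msmo1. Idi1, which makes the isoprenoid unit dimethylallyl diphosphate, had 745.8 to 1143.4 in floxed (median 925.4) and 520.3 to 844.4 in cKO cerebellum (median 757.0), with 3 of 7 cKO libraries below the floxed range (-0.37, SE 0.11, adjusted p = 0.0192; without floxed cerebellum 6, -0.44, adjusted p = 0.00426). Lanosterol demethylase Cyp51 had 1009.5 to 1390.6 (median 1093.4) and 742.0 to 1086.6 (median 1034.1), ranges that overlapped in 4 of 7 cKO libraries (-0.27, SE 0.10, adjusted p = 0.0393; without floxed cerebellum 6, -0.30, adjusted p = 0.0281). Msmo1, which removes methyl groups after Cyp51, fell (log2 fold -0.37, SE 0.11, adjusted p = 0.0171), as did Fdft1 (-0.25, SE 0.09, adjusted p = 0.0448). Fdft1 shares 18.3% of its exonic bases with the lysosomal protease gene Ctsb on the other strand, so its reads are uncertain. Without cKO cerebellum 4 and 7, Cyp51 (-0.24, adjusted p = 0.0567) and Fdft1 (-0.24, adjusted p = 0.0650) no longer passed, while Idi1 and Msmo1 did (adjusted p = 0.0327 and 0.0417). With the length index as a covariate, Idi1 (-0.26, adjusted p = 0.0836), Msmo1 (-0.33, adjusted p = 0.0504), Cyp51 (-0.22, adjusted p = 0.114) and Acat2 (-0.18, adjusted p = 0.167) did not pass, and Fdft1 did (-0.27, adjusted p = 0.0494). Sqle had 686.0 to 1126.5 in floxed (median 809.6) and 481.1 to 916.4 in cKO cerebellum (median 631.7) and did not pass (-0.37, SE 0.15, adjusted p = 0.0706).

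Acat2, a cytosolic thiolase at the entry to the pathway, had 1410.2 to 1630.4 in floxed midbrain (median 1533.5) and 1181.0 to 1437.0 in cKO midbrain (median 1227.9). It fell there, with 6 of 7 cKO libraries below every floxed one (-0.25, SE 0.06, adjusted p = 0.00728). In cerebellum it had 579.7 to 786.7 (median 696.4) and 487.7 to 695.1 (median 604.5), and the call (-0.26, SE 0.10, adjusted p = 0.0479) was lost without floxed cerebellum 6 (-0.26, adjusted p = 0.0601). A near-identical paralog, Acat3, can share its reads. Lss, which closes the lanosterol ring, had 844.6 to 1274.1 in floxed cortex (median 1083.5) and 918.4, 892.0, 825.6, 793.2 and 736.9 in cKO cortex. The last 3 of these lay below the floxed range and were the cKO libraries of high length index, and the log2 fold of -0.33 (SE 0.10, adjusted p = 0.0291) became -0.17 (SE 0.11, adjusted p = 0.336) with the index as a covariate. The other 9 enzymes, Sqle among them, passed in no region, with log2 folds between -0.37 and 0.25.

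Among the sterol sensors, Srebf2 separated the genotypes in cerebellum only, and this difference between regions passed its own test, given further on. It had 2449.3 to 3115.3 in floxed (median 2907.7, n = 7) and 1180.4 to 2348.9 in cKO cerebellum (median 1923.3, n = 7). All 7 cKO libraries lay below all 7 floxed ones, cKO 4 and 7 lowest at 1180.4 and 1289.4. The log2 fold was -0.66 (SE 0.15, adjusted p = 0.00429), -0.70 (SE 0.16, adjusted p = 0.00344) without floxed cerebellum 6 and -0.45 (SE 0.09, adjusted p = 0.00274) without cKO cerebellum 4 and 7. In cortex it had 6177.3 to 7616.0 in floxed and 7817.5, 8199.7, 6931.7, 6546.0 and 5683.5 in cKO tissue (-0.01, SE 0.07, adjusted p = 0.904), and in midbrain the log2 fold was 0.12 (SE 0.05, adjusted p = 0.147).

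Srebf1, the SREBP best known for fatty acid genes and itself an LXR target, had 1898.2 to 4163.5 in floxed (median 2282.9) and 2456.1 to 4348.0 in cKO cerebellum (median 3148.6). The highest floxed value was that of library 6, and the next was 2457.9. Srebf1 rose (log2 fold 0.50, SE 0.18, adjusted p = 0.0437), and the value was 0.66 (SE 0.13, adjusted p = 0.00114) without library 6, when 6 of 7 cKO libraries lay above every floxed one. In cortex its cKO values of 3838.5, 3036.3, 2846.5, 2801.9 and 2779.4 overlapped floxed values of 2046.5 to 3306.0 (0.26, SE 0.12, adjusted p = 0.126), and in midbrain the log2 fold was 0.18 (adjusted p = 0.215).

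Scap had 3726.3 to 4292.0 in floxed cortex (median 3869.5) and 4501.8, 4564.1, 4190.0, 4584.3 and 4306.6 in cKO cortex, with 4 of 5 cKO libraries above the floxed range (0.18, SE 0.05, adjusted p = 0.0275). In cerebellum it had 2504.1 to 3159.4 (median 2978.3) and 2938.2 to 3717.6 (median 3219.0), and its log2 fold of 0.18 (SE 0.07, adjusted p = 0.0458) no longer passed without floxed cerebellum 6 (0.18, adjusted p = 0.0645). In midbrain it was 0.13 (SE 0.04, adjusted p = 0.0557). Scap shares 13.2% of its exonic bases with a transcript on the other strand. Insig1, which retains Scap when sterol is plentiful, passed in no region (0.03, -0.00 and -0.33, adjusted p = 0.911, 0.979 and 0.0713). Stard4, a cytosolic sterol carrier, did not pass either (-0.22, -0.14 and 0.09). In cerebellum its 2 lowest cKO values, 422.2 and 629.0, were those of libraries 4 and 7, where the other 5 had 973.9 to 1532.5. Without those 2 libraries its log2 fold was 0.44 (SE 0.11, adjusted p = 0.00843), a setting chosen after its values were seen.

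Of the 7 LXR and transport genes none fell, and 2 rose in each of cortex and midbrain and 3 in cerebellum, where 10.5%, 8.48% and 19.4% of all tested genes rose and 12.9%, 7.61% and 19.6% fell. With 7 genes, nothing is read from the absence of a fall. Nr1h3 (chromosome 2, 91184061 to 91202834 on GRCm38, minus strand) rose in every region with no overlap between the genotypes. It had 68.5 to 98.8 in floxed cortex (median 82.8, n = 6) and 190.3, 203.3, 180.1, 205.1 and 156.7 in the 5 cKO libraries, 2.21-fold higher (log2 fold 1.14, SE 0.13, adjusted p = 0.000338). It had 86.5 to 113.8 in floxed (median 95.6) and 141.0 to 241.9 in cKO midbrain (median 179.4), 1.82-fold higher (0.87, SE 0.11, adjusted p = 0.000145). It had 267.8 to 399.7 in floxed (median 306.0) and 542.7 to 1160.1 in cKO cerebellum (median 583.6), 2.19-fold higher (1.13, SE 0.17, adjusted p = 0.000713). The 2 highest cKO values there, 1160.1 and 993.4, were those of libraries 7 and 4, and without them the log2 fold was 0.89 (SE 0.11, adjusted p = 0.000682). Without floxed cerebellum 6, which held the highest floxed value, it was 1.18 (SE 0.18, adjusted p = 0.000246). Nr1h2 passed in no region (0.07, -0.03 and 0.15, adjusted p = 0.621, 0.730 and 0.311). LXR alpha is the form known from macrophages and microglia as well as other cells, and the sum of 15 microglia and macrophage markers was 11101.4 to 16199.3 in floxed and 14113.2 to 33432.2 in cKO cortex, 9207.2 to 12851.0 and 11435.4 to 23262.8 in midbrain, and 3659.3 to 17310.5 and 14084.7 to 40358.0 in cerebellum. The floxed cerebellum sum of 17310.5 was that of library 6, and the other floxed cerebellum libraries had 3659.3 to 4792.1. The part of this rise of the markers in that of Nr1h3 was not tested.

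Lcat (chromosome 8, 105939551 to 105943382, minus strand) rose in every region. Its effect was smaller in cerebellum than in cortex or midbrain, as tested further on, and the difference between midbrain and cortex did not pass (-0.40, SE 0.18, adjusted p = 0.998). It had 381.3 to 927.0 in floxed cortex (median 543.3) and 1108.9, 1463.4, 1446.5, 1285.5 and 1334.6 in cKO cortex, 2.33-fold higher with no overlap (1.22, SE 0.18, adjusted p = 0.00136). In midbrain it had 632.3 to 900.4 (median 712.2) and 1120.9 to 1559.7 (median 1297.5), 1.77-fold higher and again with no overlap (0.82, SE 0.08, adjusted p = 4.6e-05). In cerebellum, where the floxed level was already 1762.4 to 2297.8 (median 1982.8), the cKO libraries had 2121.4 to 3031.2 (median 2557.3) and the ranges overlapped. There it was 1.22-fold higher (0.29, SE 0.08, adjusted p = 0.0135; without floxed cerebellum 6, 0.30, adjusted p = 0.0147). The cKO levels of cortex and midbrain thus stayed below the floxed cerebellar range.

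**Figure D3:**
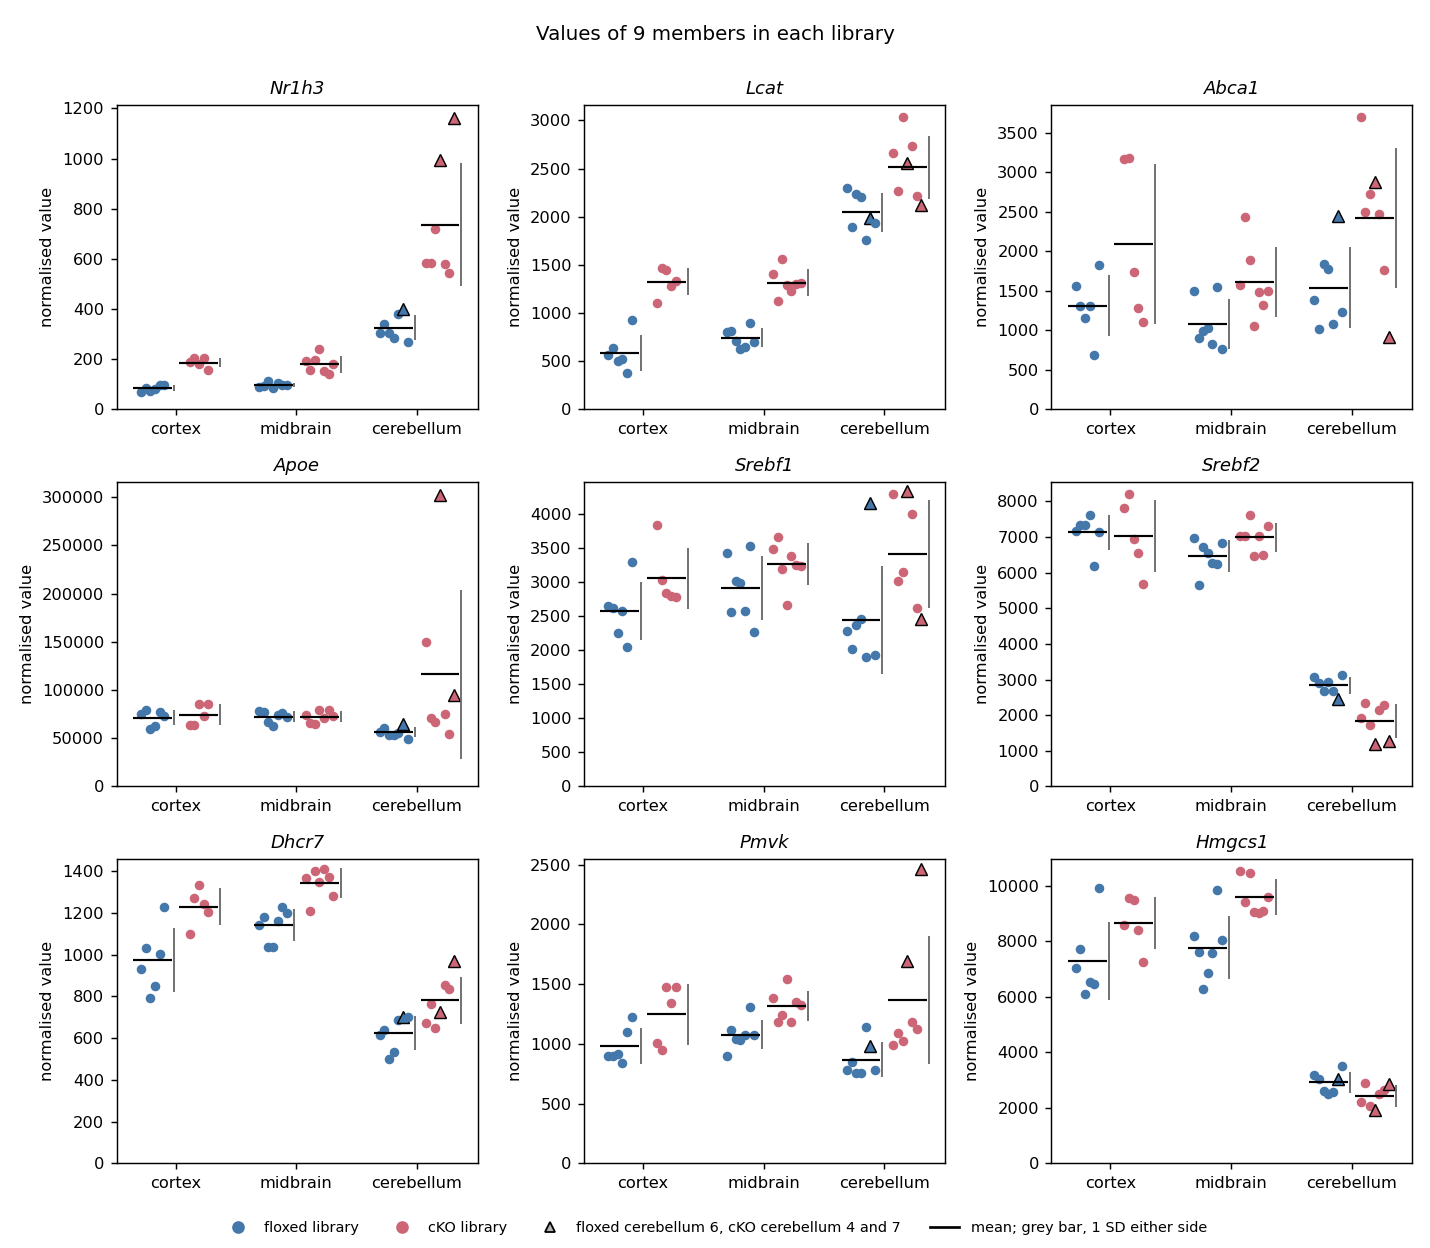
Normalised value (y axis) of 9 members in each library of cortex, midbrain and cerebellum, floxed in blue and cKO in red, with the mean as a black line and 1 SD either side as a grey bar; triangles are floxed cerebellum 6 and cKO cerebellum 4 and 7. Nr1h3 separates the genotypes in all 3 regions, Lcat in cortex and midbrain and Srebf2 in cerebellum, while the Apoe panel is set by the value of 302217.5 in cKO cerebellum 4.

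Apoe (chromosome 7, 19696109 to 19699188, minus strand) rose in cerebellum, and few libraries carried the difference. It had 49640.3 to 64551.0 in floxed cerebellum (median 55717.3) and 53992.9 to 302217.5 in cKO cerebellum (median 75038.3), with 6 of 7 cKO libraries above the floxed range. The log2 fold of 0.79 (SE 0.29, adjusted p = 0.0433) was 0.87 (adjusted p = 0.0356) without floxed cerebellum 6 and 0.47 (SE 0.19, adjusted p = 0.0678) without cKO cerebellum 4 and 7. The 2 highest values, 302217.5 in library 4 and 149592.9 in library 1, came from the libraries with the highest sums of choroid plexus and ependyma markers, 286032.6 and 149888.7, where floxed cerebellum had 1374.9 to 69438.1. The same 2 libraries had the highest sums of microglia and macrophage markers (40358.0 and 29141.9) and the highest Gfap (60063.5 and 63053.0) of cKO cerebellum. Library 2, with a choroid plexus and ependyma sum of 103356.2, had Apoe at 70608.8, and library 7, with a sum of 23915.9, had 94533.8. The part of these tissues and cells in the Apoe values was not tested. In cortex Apoe had 60002.2 to 79048.3 in floxed and 63366.2, 63584.0, 85216.3, 73499.0 and 85545.6 in cKO tissue (0.05, SE 0.10, adjusted p = 0.751), and in midbrain the log2 fold was -0.00 (SE 0.06) and did not pass.

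Abca1, the exporter that loads cholesterol onto apolipoproteins, was singled out after its values were seen, because its log2 folds of 0.64, 0.58 and 0.61 were among the largest of the members without passing (SE 0.28, 0.19 and 0.26, adjusted p = 0.114, 0.0557 and 0.0733). In cortex it had 691.6 to 1829.7 in floxed tissue (median 1309.4) and 3173.9, 3180.4, 1743.4, 1283.7 and 1106.5 in cKO tissue. The 2 high cKO values were those of libraries 2 and 3, and the 3 within the floxed range were those of high length index. With the index as a covariate the log2 folds were 1.22 (SE 0.25, adjusted p = 0.0211) in cortex, 0.87 (SE 0.18, adjusted p = 0.0125) in midbrain and 0.82 (SE 0.29, adjusted p = 0.0457) in cerebellum. In midbrain it had 762.0 to 1551.5 (median 990.5) and 1058.5 to 2441.8 (median 1496.8), with 3 of 7 cKO libraries above the floxed range. In cerebellum it had 1021.5 to 2453.6 (median 1390.2) and 911.8 to 3706.7 (median 2505.6), and without floxed cerebellum 6, the highest floxed library, the log2 fold was 0.79 (SE 0.22, adjusted p = 0.0111). Abcg1, which exports cholesterol to lipoprotein particles, passed in no region (-0.09, -0.04 and -0.11), nor did Mylip, the ligase that degrades lipoprotein receptors (0.27, 0.13 and -0.01). Mylip passed in cortex only with the index as a covariate.

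**Figure D4:**
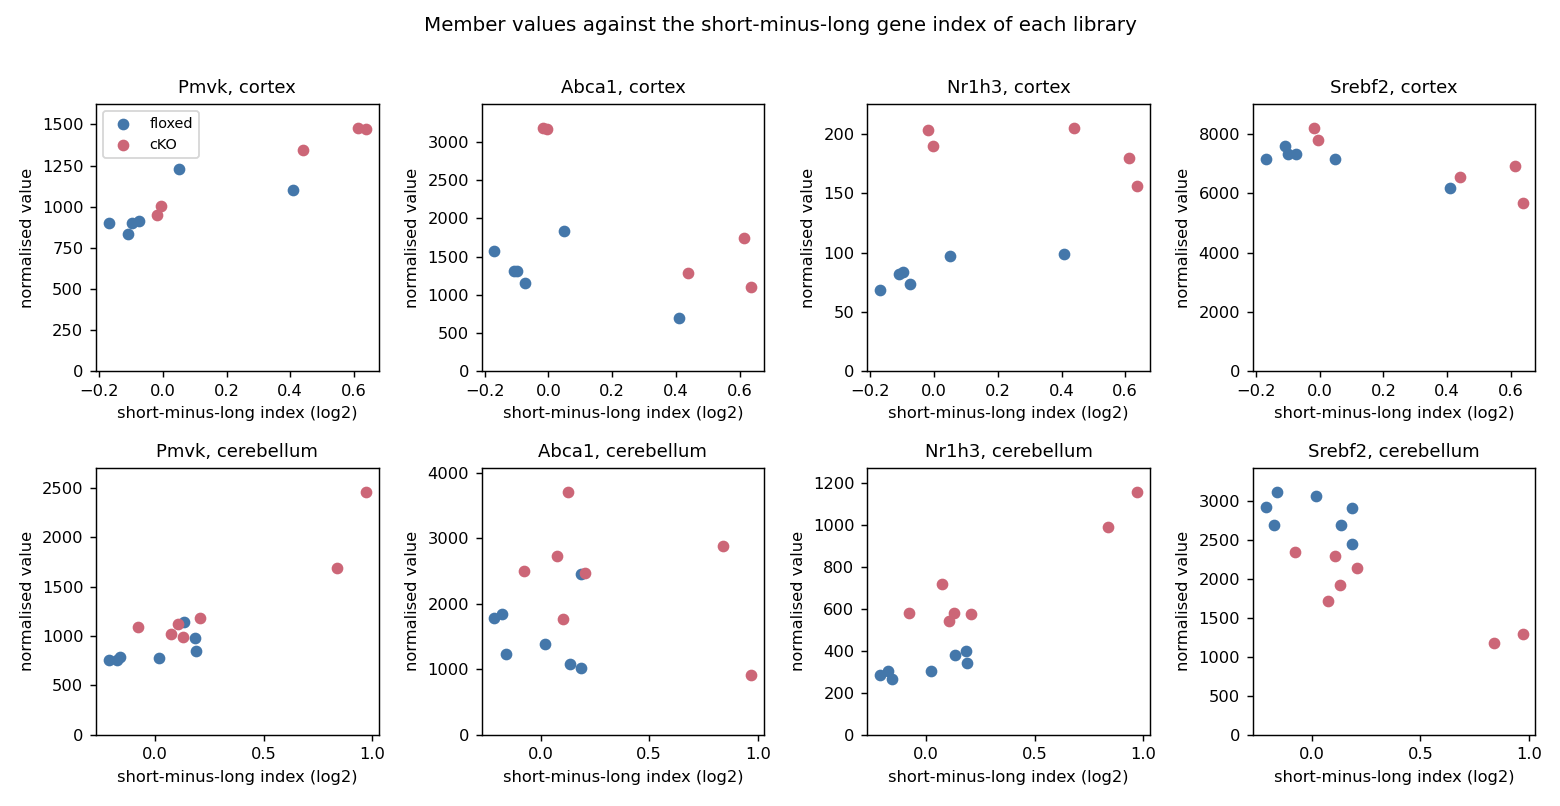
Normalised value (y axis) of 4 members against the short-minus-long gene index of each library (x axis, log2), in cortex (top) and cerebellum (bottom), floxed in blue and cKO in red. Pmvk has its highest values at the highest index in both regions, Abca1 in cortex has its 2 highest at an index near 0, and Nr1h3 in cortex lies above all floxed libraries at every index.

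In the turnover genes, Cyp46a1 (chromosome 12, 108334381 to 108362234, plus strand) fell in cerebellum. It had 1078.3 to 1516.8 in floxed (median 1319.3) and 632.4 to 1442.7 in cKO cerebellum (median 1008.9), and 5 of 7 cKO libraries lay below the floxed range. The log2 fold was -0.43 (SE 0.15, adjusted p = 0.0348), -0.49 (SE 0.16, adjusted p = 0.0230) without floxed cerebellum 6, and -0.56 (SE 0.13, adjusted p = 0.00595) without cKO cerebellum 4 and 7. Neuron markers also fell there (7 of 12, beside 3 of 12 in cortex and 1 of 12 in midbrain), and their part in this was not tested. In cortex Cyp46a1 had 7306.3 to 10211.7 in floxed and 7091.9, 7542.9, 8727.3, 9020.7 and 10475.8 in cKO tissue (0.04, SE 0.08, adjusted p = 0.753), and in midbrain the log2 fold was 0.20 (SE 0.08, adjusted p = 0.0925). Soat1, which esterifies cholesterol for storage, passed in no region (-0.00, 0.11 and 0.11).

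The genotype effects of the regions were compared directly in a fit of all 6 groups. Between midbrain and cortex 0 members differed, where 0.006% of tested genes (1 gene) did at the same limma threshold. At an unadjusted p under 0.05, 2 members (Ebp and Lcat) differed. The simulated data held no difference between these 2 regions. How many true differences this contrast would miss was therefore not measured, and its count of 0 says little. Between cerebellum and cortex 3 members differed, all lower in cerebellum, against 14.5% of tested genes. They were Hmgcs1 (-0.52, SE 0.15, adjusted p = 0.0188), Srebf2 (-0.64, SE 0.16, adjusted p = 0.00635) and Lcat (-0.93, SE 0.18, adjusted p = 0.000471). Between cerebellum and midbrain 7 differed, against 22.4% of tested genes, a share near that background. The effect was lower in cerebellum for Hmgcs1 (-0.58, SE 0.14, adjusted p = 0.00351), Sqle (-0.42, SE 0.16, adjusted p = 0.0498), Cyp51 (-0.33, SE 0.12, adjusted p = 0.0444), Srebf2 (-0.78, SE 0.15, adjusted p = 0.000347), Lcat (-0.53, SE 0.17, adjusted p = 0.0187) and Cyp46a1 (-0.64, SE 0.16, adjusted p = 0.00477), and higher for Apoe (0.80, SE 0.28, adjusted p = 0.0390). The 2 differences share the cerebellum libraries. Without floxed cerebellum 6 the counts were 4 and 8, with Cyp46a1 passing against cortex (-0.54, adjusted p = 0.0215) and Srebf1 against midbrain (0.47, adjusted p = 0.0309). Without cKO cerebellum 4 and 7 Apoe, Sqle and Cyp51 no longer differed from midbrain at the threshold, while Stard4 differed from cortex (0.67, SE 0.15, adjusted p = 0.00184) and from midbrain (0.58, SE 0.14, adjusted p = 0.00306).

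Several of these calls lay close to the threshold and were lost when single libraries were left out. With each library left out in turn, Dhcr7 in cortex passed in 8 of 11 fits (not without floxed 4, cKO 3 or cKO 4), Lss in 6, Scap in 4 and Pmvk in 3 of 11. In cerebellum Cyp46a1 passed in 6 of 14 fits, Apoe and Cyp51 in 5, Srebf1 in 4, and Acat2, Fdft1 and Scap in 3. The difference between cerebellum and midbrain passed in 16 of 28 fits for Apoe, 14 for Cyp51 and 8 for Sqle. Nr1h3 and Lcat in each region, every called member in midbrain, and Dhcr7, Pmvk, Idi1, Msmo1 and Srebf2 in cerebellum passed in all such fits. The index as a covariate also ended the calls of Hmgcs1 in midbrain (0.31, adjusted p = 0.0605) and, in cerebellum, of Srebf1 (0.47, adjusted p = 0.116), Scap (0.15, adjusted p = 0.101) and Apoe (0.35, adjusted p = 0.288). Besides Abca1, other members passed only with the index. They were Srebf1 (0.47, limma adjusted p = 0.0425) and Mylip (0.44, adjusted p = 0.0271) in cortex, Srebf2 in midbrain (0.18, adjusted p = 0.0332) and Stard4 in cerebellum (0.53, adjusted p = 0.0113). The differences of effect that passed with every library left out were those of Hmgcs1, Srebf2 and Lcat in both contrasts and that of Cyp46a1 against midbrain.

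**Figure D5:**
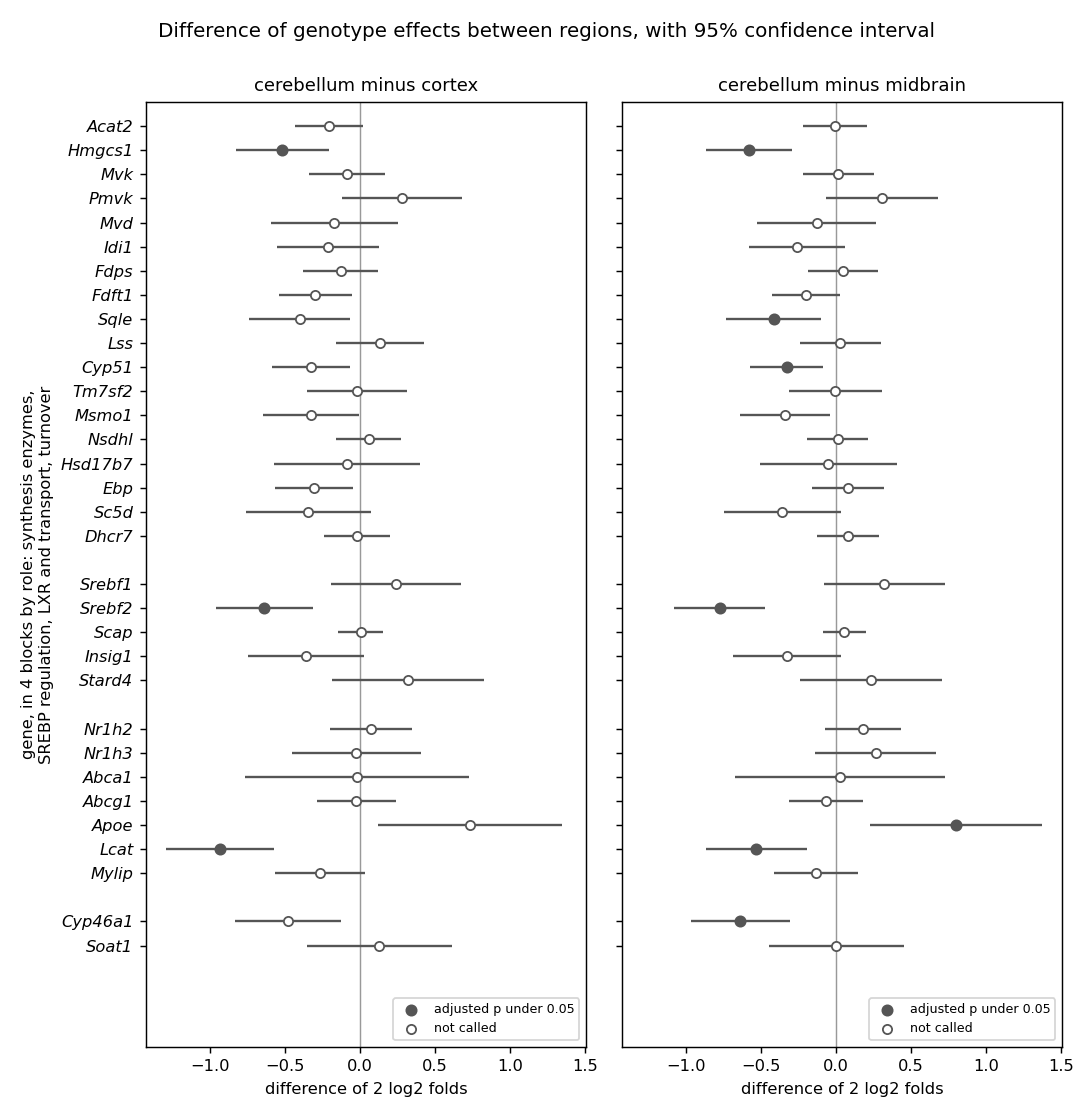
Difference of genotype effects (x axis, difference of 2 log2 folds) between cerebellum and cortex and between cerebellum and midbrain for each member (y axis, in 4 blocks by role), with 95% confidence intervals; filled points have a limma adjusted p under 0.05. Lcat (-0.93 and -0.53), Srebf2 (-0.64 and -0.78) and Hmgcs1 (-0.52 and -0.58) are filled in both panels.

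The rest of the pathway was read from 5 further lists of 72 genes, of which 68 were tested in cortex and 69 in midbrain and cerebellum. In cortex 6 rose and 11 fell, where 10.5% and 12.9% of all tested genes did. In midbrain 6 rose and 11 fell, where 8.48% and 7.61% did. In cerebellum 16 rose and 15 fell, where 19.4% and 19.6% did. The counts of each list below are descriptions beside those shares. The cerebellar folds and counts of these lists include floxed cerebellum 6 and are not given without it. Of 15 tested genes of sterol and isoprenoid synthesis outside the 32, 7 fell and 2 rose in cerebellum. Cyb5r3, a cytochrome b5 reductase of broad use, rose in all 3 regions (0.64, 0.44 and 0.91, adjusted p = 0.00111, 0.00203 and 0.000993). Of the lipoprotein genes, the receptor gene Vldlr fell in cortex and cerebellum (-0.40 and -0.81), and the lipocalin gene Apod rose in cortex and cerebellum (0.70 and 1.65). Among 13 fatty acid targets of SREBP-1 and LXR, 2 rose and 2 fell in cortex, 3 and 2 in midbrain, and 2 and 2 in cerebellum, with the elongase Elovl6 lower in each (-0.30, -0.25 and -0.43). Among 14 genes of efflux and intracellular transport, the lysosomal sterol carrier Npc2 rose in cortex and cerebellum (0.48 and 0.71). Of 13 oxysterol and receptor genes, 6 rose and 2 fell in cerebellum, where Ch25h, which makes 25-hydroxycholesterol, rose by 1.38 (SE 0.48, adjusted p = 0.0348). Ch25h values were low, at 5.0 to 22.8 in floxed and 6.6 to 106.8 in cKO cerebellum, and the ranges overlapped. The highest value was that of cKO cerebellum 4. Ebi3, which rose in all 3 regions (1.13, 0.72 and 1.94), is in that list but encodes a cytokine subunit.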

How the data were processed

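Per the labels' protocols, RNA was extracted with TRIzol, selected for poly(A), prepared with a kit that does not mark strand and sequenced as paired reads of 50 bases. STAR, Salmon, DESeq2 and the build mm10 are named in the submitters' processing notes, without versions or order. The values the authors deposited were treated as a normalised signal, and they carry decimals. Their totals were 27.16 to 28.669 M in cortex, 25.588 to 26.812 M in midbrain and 21.494 to 23.755 M in cerebellum. Of 75852 low values, 85.6% lay within 0.1 of a whole multiple of their library's step. Whole reads were therefore not recovered and no count test was run. How the values were normalised is not stated. The step hides depth, and shallow libraries keep a larger error for low genes.

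Libraries were grouped by genotype and tissue label, replicate numbers came from the titles, and 2 libraries, 1 of each genotype, titled as cortex but labelled as midbrain, entered no comparison. Of 24972 entries, 26 with date-like names were left out. Each region was fitted alone with limma 3.58.1 (R 4.3.3; trend and robust) on log2(value + 1), with the sex given in the labels as covariate, over genes with a value of at least 10 in as many libraries as the smaller group. An adjusted p under 0.05 (Benjamini-Hochberg over all tested genes) counted as a call. Folds on that scale understate the change of low genes. Differences between regions were contrasts of 1 fit. Sex transcripts went against the label in 8 of the 39 libraries compared, and these stayed in their groups. In cortex, 0 of 6 floxed and 2 of 5 cKO libraries had high Xist, though each group had 2 libraries of female label. In midbrain and in cerebellum it was 1 of 7 floxed and 2 of 7 cKO libraries. By transcript, sex and genotype are therefore partly confounded in cortex, and the covariate of labelled sex does not adjust for this. Each library of a region is from 1 animal.

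The members, gene lists and tests were chosen with earlier results of these data known. Values are given for the 7 called members of largest fold per region, those called in all regions and those whose effect differed between regions. From each other list the genes of lowest p were eligible, at most 3 per region, and some of them are not reported here. Alternatives changed pseudocount, filter, scaling, covariates, weights, block and libraries. The fits were tested on simulated data with 200 changed genes, of which 67.5% were recovered in cortex (15593 genes tested), 88.0% in midbrain (15621) and 81.0% in cerebellum (15056). For differences of effect (16526 genes) 20.0% were recovered between cerebellum and cortex and 24.0% between cerebellum and midbrain. Of the calls in these contrasts, 24.5% and 15.8% were genes left unchanged. The simulated effects were the same in midbrain and cortex, so recovery was not measured for that contrast. Gene positions are from GENCODE vM21 on GRCm38, which matched 97.9% of gene names. Tables and plots used Python 3.11.15, pandas 2.3.3, numpy 2.4.6 and matplotlib 3.10.9.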

Additional observations from a re-analysis of the deposited data

Results flagged for a closer look

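Single libraries stood apart within their group in 8 of 90 member groups examined over 15 members, a number to set beside the 1 in 20 groups that chance marks. In floxed cortex 5 Acat2 was high at 1526.3 (others 1203.2 to 1298.3), Cyp46a1 was high at 10211.7 (others 7306.3 to 8187.8) and Srebf2 was low at 6177.3 (others 7148.9 to 7616.0). That library also had the highest length index of floxed cortex (0.41). Scap was high in floxed cortex 6 at 4292.0 and low in floxed cerebellum 3 at 2504.1. Srebf1 was high in cKO cortex 2 at 3838.5 and in floxed cerebellum 6 at 4163.5, the library whose Yy1 and Gfap go against its label. Apoe was high in cKO cerebellum 4 at 302217.5.

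The genotype effect passed a test of difference between regions in 10 cases. Against cortex the cerebellar effect was lower for Hmgcs1 (-0.52), Srebf2 (-0.64) and Lcat (-0.93). Against midbrain it was lower for Hmgcs1 (-0.58), Sqle (-0.42), Cyp51 (-0.33), Srebf2 (-0.78), Lcat (-0.53) and Cyp46a1 (-0.64) and higher for Apoe (0.80).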

How the results depend on the processing

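No called genotype fold reversed its direction under any alternative. Some folds that did not pass changed sign with the length index as a covariate. Among them, Cyp46a1 (-0.13), Apoe (-0.13) and Nr1h2 (-0.12) in cortex and Nr1h2 in cerebellum (-0.05) went below 0. Srebf2 in cortex (0.11) and Abcg1 in cerebellum (0.09) went above 0. Between floxed cerebellum and cortex, Pmvk changed sign with values scaled to equal totals, as given above. Nr1h3 and Lcat passed in every region under all alternatives and with each library left out, as did Srebf2 and Dhcr7 in cerebellum, whereas Pmvk in cortex passed in 6 of 14 alternatives and in 3 of 11 fits with a library left out. In cortex the count of members that rose (5) was 2 with depth as a further covariate, 10 with array weights, 2 with the replicate block, 8 without the libraries whose sex transcripts go against their label, and 2 to 10 with a library left out. The count that fell there (1) was 0 with values scaled to equal totals, with Xist replacing the sex label, with the replicate block, with the length index as a covariate and without those libraries, and 0 to 1 with a library left out. In midbrain the count that rose (5) was 2 with depth, 9 with array weights, 3 in 1 fit of all groups and 5 to 7 with a library left out, and the count that fell (1) was 2 with Xist or array weights, 0 with depth and 1 to 2. In cerebellum the count that rose (7) was 4 with no filter, 4 with the replicate block and 4 to 7, and the count that fell (7) was 2 with equal totals, 4 with depth, 4 with the replicate block, 11 in 1 fit, 3 with the length index, 4 without cKO libraries 4 and 7, and 3 to 6. The differences of effect between cerebellum and cortex (3) numbered 7 with array weights, 5 with the block, 9 with the length index, 6 without cKO libraries 4 and 7, 6 without these and floxed 6, and 3 to 5. Between cerebellum and midbrain (7) they numbered 4 with no filter and 4 to 8, and between midbrain and cortex 0 to 0. The floxed midbrain and cortex count (12) was 19 with array weights and 6 to 12, that of cerebellum and cortex (27) 25 to 29 and that of cerebellum and midbrain (29) 28 to 31. The cause of these shifts was not tested. The length index and the settings without libraries 4, 6 and 7 were chosen after seeing the data. The block used the replicate number within a region, and genotype with that number between regions. Floxed and cKO libraries of the same number did not deviate together (4 of 19 pairs over 0.1, median -0.04), while regions of the same number did in 32 of 36 pairs (median 0.23), though the labels do not say that numbers mark animals. How depth limits each member was not tested.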

Other observations

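Of the 2 libraries titled as cortex but labelled as midbrain, 1 was floxed and 1 cKO, and neither entered a comparison. Nr1h3 had 76.7 in the floxed and 157.3 in the cKO library, Lcat had 510.5 and 1753.3, Srebf2 had 7092.5 and 7601.7, Dhcr7 had 1020.4 and 1165.8, and Abca1 had 748.9 and 2027.0.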
